A study of Mus musculus with 12 samples.

Results

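Mouse liver makes most of the acute-phase proteins found in plasma, and 10 of their genes are described here: the serum amyloid A genes Saa1, Saa2, Saa3 and Saa4, the orosomucoid genes Orm1, Orm2 and Orm3, the lipocalin gene Lcn2, and the short pentraxin genes Crp and Apcs. They were taken by gene symbol from a table of read counts for 35275 genes, and all 10 were among the 12378 genes with enough counts to be tested. The libraries came from frozen livers of male C57Bl/6J mice aged 13 weeks. Of the 12 libraries, 6 were from mice kept on chow and 6 from mice given a diet with 0.5% norUDCA (norursodeoxycholic acid, a bile acid with a side chain shorter than that of ursodeoxycholic acid) for 1 week. All 12 are labelled WT. Each library is named here by its diet and the number that follows WT in its label. Nothing states that the libraries came from separate mice, so the p-values measure the spread between libraries, which may in part be technical.

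Acute-phase proteins are secreted in changing amounts when macrophages and other cells release interleukin-6, interleukin-1 and tumour necrosis factor. Interleukin-6 acts on hepatocytes through a receptor that contains gp130 and through the transcription factor STAT3, and interleukin-1 acts through NF-kappa B and factors of the C/EBP family. Mice and humans differ in which protein moves most. In humans CRP is a major acute-phase protein, whereas in mice Crp responds weakly and Apcs, which encodes serum amyloid P component, together with the serum amyloids, responds strongly. In bulk tissue, fewer cells of a type and less RNA per cell cannot be told apart.

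Sequence before the start site is shown for the members that hold the letters of a C/EBP or STAT3 site there, factors known to act on acute-phase genes in liver. A promoter window of 250 bases before to 50 bases after the RefSeq start site (build GRCm38.p6) was at hand for 9 of the 10 genes, not for Orm1. The letters TTNNGCAA or TTGCNNAA, used for a C/EBP site and searched on both strands, were in the windows of 7 of these 9 genes and in 10.8% of the 32851 mouse windows. The STAT3 letters TTCNNNGAA were in 1 of 9 (Apcs) and in 8.30% of all windows. A kappa B motif was in 0 of 9 and in 4.51% of all windows, and the HNF1 letters GTTAAT were in 0 of 9 and in 7.10% of all windows. Crp had a match to none of these 4 motifs. A match is a description of the letters and not a bound site. In the stretches below, each of 80 bases and written 5′ to 3′ on the strand of the gene, capitals mark the C/EBP match nearest the start site, or the STAT3 match in Apcs.
Saa1 (chr7:46743119-46743198, minus strand): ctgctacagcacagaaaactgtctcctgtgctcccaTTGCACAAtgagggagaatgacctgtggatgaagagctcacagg
Saa2 (chr7:46751614-46751693, plus strand): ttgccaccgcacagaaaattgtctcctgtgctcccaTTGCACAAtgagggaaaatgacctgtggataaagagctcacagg
Saa3 (chr7:46715732-46715811, minus strand): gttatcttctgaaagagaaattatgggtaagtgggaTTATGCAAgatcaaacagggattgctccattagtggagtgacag
Saa4 (chr7:46732612-46732691, minus strand): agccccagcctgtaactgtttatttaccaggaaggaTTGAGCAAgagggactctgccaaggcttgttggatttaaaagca
Orm2 (chr4:63362293-63362372, plus strand): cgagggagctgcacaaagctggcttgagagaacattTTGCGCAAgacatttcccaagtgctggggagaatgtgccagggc
Orm3 (chr4:63356001-63356080, plus strand): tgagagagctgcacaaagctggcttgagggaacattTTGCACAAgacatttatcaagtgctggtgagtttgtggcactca
Lcn2 (chr2:32387910-32387989, minus strand): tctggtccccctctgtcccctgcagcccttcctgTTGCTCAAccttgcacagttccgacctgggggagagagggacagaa
Apcs (chr1:172895225-172895304, minus strand): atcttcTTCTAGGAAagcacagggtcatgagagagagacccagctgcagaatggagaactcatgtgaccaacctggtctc

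The C/EBP match began 182 bases before the start site in Saa1 and 183 bases before it in Saa2, with the same 8 letters. The promoter windows of these neighbours on chromosome 7 were identical at 95.7% of aligned bases. In Orm2 and Orm3, neighbours on chromosome 4, the match began 120 and 121 bases before the start site, and the windows were identical at 87.7%. The 7 windows with a C/EBP match thus include near copies, and cannot be set against the share of all windows as 7 separate sequences. Among the transcripts (GENCODE M21), Saa1 and Saa2 were identical at 93.9% of aligned bases with a longest shared run of 99 bases, and Orm1 and Orm2 at 91.0% with a run of 141 bases. Orm3 was identical to Orm1 at 86.1% and to Orm2 at 88.0%. Reads from these near copies could have been exchanged by the authors' counting, so their single values are less certain than their sums. Saa4 was at most 58.8% identical to any other serum amyloid, and Crp and Apcs were 56.1% identical to each other.

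Before the diets were compared, 1 library stood apart. Chow 2 was the highest chow library for 9 of the 10 genes, the exception being Orm3, and these 10 genes took 2.46% of its counts. In chow 7 they took 1.08%, in the other 4 chow libraries 0.284% to 0.506%, and in the norUDCA libraries 0.142% to 0.342%. The chow libraries held 12209706 to 13715026 counts each and the norUDCA ones 14065837 to 15342922, so depth separated the diets. With all libraries thinned to 12209706 counts, 6 members were called lower, as many as at full depth, where 8.62% of all tested genes were called lower. Abundances are given as CPM, counts scaled to a common library size, and fold changes, chow spreads and the chow means it moves most are also given without chow 2 (same scaling for the means and ratios).

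Under norUDCA, 6 of the 10 genes fell and 0 rose. The 6 were Saa1, Saa2, Saa3, Saa4, Orm1 and Orm2, and Orm3, Lcn2, Crp and Apcs did not pass the test. Of all tested genes 8.62% were called lower by the same test (edgeR quasi-likelihood, Benjamini-Hochberg adjusted p under 0.05), 1067 genes beside 833 called higher. The median log2 fold change was -1.57 over the 10 members and -0.00 over all tested genes. Without chow 2, 6 members were again called lower beside 7.82% of 12559 tested genes. For 2 members, Saa3 and Orm2, every norUDCA library lay below every chow library, which was so for 4.07% of all tested genes.

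**Figure D1:**
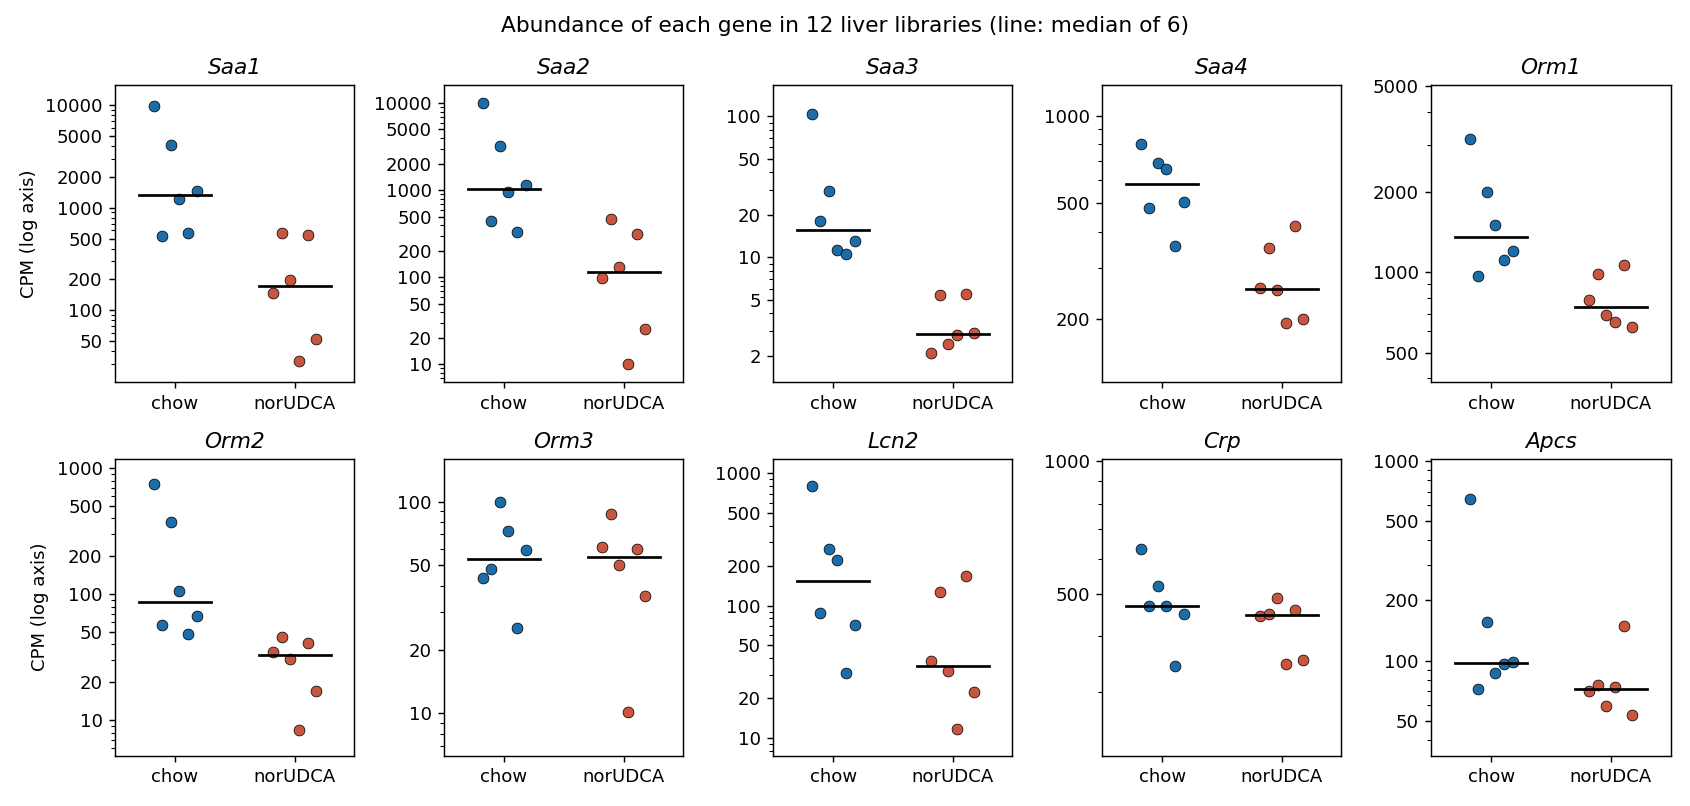
CPM of each of the 10 genes (log axes, a different range in each panel) in the 6 chow libraries (blue, in the order 2, 3, 7, 8, 16, 17) and the 6 norUDCA libraries (red, in the order 9, 10, 11, 12, 13, 20), with the median of each diet as a line. Chow 2 is the top chow point in 9 panels, and the diets do not overlap for Saa3 and Orm2.

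Saa1 and Saa2 encode the acute-phase serum amyloids that travel on high-density lipoprotein. Saa1 (chr7:46740501-46742980 in the deposited table) had its lowest, median and highest chow value at 526, 1339 and 9776 CPM, and at 32.3, 173 and 567 CPM in norUDCA. The diets overlapped, with 5 of 6 chow libraries above the highest norUDCA library and 4 of 6 norUDCA libraries below the lowest chow library. The mean was 2943 ± 3598 CPM (SD, n = 6) in chow and 256 ± 238 CPM (SD, n = 6) in norUDCA, and the chow mean without chow 2 was 1577 ± 1475 CPM (SD, n = 5). The fitted difference was 11.5-fold lower under norUDCA, a log2 fold change of -3.52 ± 0.86 (SE) with an adjusted p of 0.0132 by edgeR's quasi-likelihood test. Without chow 2 it was 6.16-fold lower (adjusted p = 0.0275).

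Saa2 (chr7:46751833-46754314) ran from 331 through a median of 1043 to 10153 CPM in chow and from 10.1 through 115 to 465 CPM in norUDCA. Again the diets overlapped, with 4 of 6 chow libraries above every norUDCA library and chow 3 and chow 16 below the highest of them. Its log2 fold change was -3.95 ± 1.01 (adjusted p = 0.0164), which is 15.5-fold lower, and 6.98-fold lower without chow 2 (adjusted p = 0.0359). With the counts of these near copies summed, the log2 fold change was -3.71 ± 0.92 (adjusted p = 0.0143). Saa1 and Saa2 together took 1.82% of the counts of chow 2 (95% exact binomial interval 1.816% to 1.830%) and 0.00449% of those of norUDCA 12 (0.00415% to 0.00485%). These intervals cover counting error only, and the libraries of either diet differed by far more.

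Saa3 is made in mice by macrophages, adipocytes and other cells outside the liver as well as in liver. It was the least abundant serum amyloid here, at 10.6 to 104 CPM in chow (median 15.5) and 2.09 to 5.5 CPM in norUDCA (median 2.85), from 129 to 1244 and 30 to 86 counts. No norUDCA library reached the lowest chow library. The log2 fold change was -3.13 ± 0.58 (adjusted p = 0.00254), 8.75-fold lower, and 4.63-fold lower without chow 2 (adjusted p = 0.000476).

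Saa4 encodes the serum amyloid that is made constitutively and is known for a weak acute-phase response. Its chow libraries lay between 358 and 798 CPM (median 581) and its norUDCA libraries between 195 and 419 CPM (median 255). The ranges overlapped through chow 16, the lowest chow library, and norUDCA 13, the highest of the other diet. Saa4 fell 2.08-fold (log2 fold change -1.06 ± 0.21, adjusted p = 0.00454), and the log2 fold change was -0.94 without chow 2 (adjusted p = 0.00899). It was thus called with a smaller fold change and a smaller standard error than the other serum amyloids. Summed over the 4 genes, serum amyloid abundance was 6265 ± 7551 CPM in chow (median 2975) and 714 ± 500 CPM in norUDCA (median 545). Without chow 2 the chow sum was 3352 ± 2763 CPM (SD, n = 5).

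Orosomucoid, or alpha-1-acid glycoprotein, is a plasma lipocalin that binds basic and neutral drugs. Orm1 (chr4:63344560-63348163) was the most abundant of its genes, at 966 to 3148 CPM in chow (median 1350) and 621 to 1066 CPM in norUDCA (median 742). Its diets overlapped, since chow 3 lay below the 2 highest norUDCA libraries. The log2 fold change was -1.04 ± 0.26 (adjusted p = 0.0144), 2.06-fold lower, and 1.69-fold lower without chow 2 (adjusted p = 0.0166).

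Orm2 (chr4:63362449-63365878) had lowest, median and highest values of 48.2, 86.8 and 745 CPM in chow and 8.39, 32.9 and 46.2 CPM in norUDCA. The ranges did not overlap, though chow 16 at 48.2 CPM and norUDCA 10 at 46.2 CPM were close. Orm2 fell 7.84-fold (log2 fold change -2.97 ± 0.69, adjusted p = 0.00950), and 4.39-fold without chow 2 (adjusted p = 0.0167).

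Orm3 (chr4:63356162-63359511), which lies between Orm1 and Orm2 in the deposited table, did not pass the test. It ranged from 25.3 to 99.8 CPM in chow (median 53.4) and from 10.1 to 87.6 CPM in norUDCA (median 54.8), with a log2 fold change of -0.20 ± 0.39 (adjusted p = 0.784). Diet accounted for 3.75% of the variance of its log2 CPM, the smallest share among the 10 genes, against 51.6% for Orm1 and 49.0% for Orm2. It was also the gene in which chow 2, at 43.4 CPM, was not among the highest chow libraries. The counts of the 3 orosomucoid genes summed gave a log2 fold change of -1.14 ± 0.29 (adjusted p = 0.0167).

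Lcn2 encodes lipocalin 2, which binds bacterial siderophores and is made by hepatocytes and stored in neutrophil granules. In chow it ran from 30.7 through a median of 154 to 807 CPM, and in norUDCA from 11.7 through 35.1 to 168 CPM. Only 3 of 6 chow libraries lay above the highest norUDCA library. The means were 248 ± 289 CPM (136 ± 103 CPM without chow 2) and 66.6 ± 64.7 CPM (SD, n = 6 each), with a log2 fold change of -1.89 ± 0.77 that did not pass the test (adjusted p = 0.110). Without chow 2 it was -1.02 (adjusted p = 0.332). Without norUDCA 13, the highest library of that diet, it was -2.40.

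The short pentraxins are pentameric plasma proteins that bind their ligands with the help of calcium. Crp (chr1:172698056-172699966) was the steadiest of the 10 genes, at 344 to 632 CPM in chow (median 468) and 346 to 488 CPM in norUDCA (median 447). The norUDCA range lay wholly within the chow range, and the log2 fold change was -0.18 ± 0.13 (adjusted p = 0.383). Apcs (chr1:172893962-172895054) ran from 72.4 through a median of 97.0 to 639 CPM in chow and from 53.5 through 72.1 to 149 CPM in norUDCA. Its log2 fold change of -1.25 ± 0.50 did not pass the test (adjusted p = 0.106) and was -0.34 without chow 2 (adjusted p = 0.404). In chow 2 Apcs was 6.59 times its chow median, and the other 5 chow libraries lay between 72.4 and 156 CPM.

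**Figure D2:**
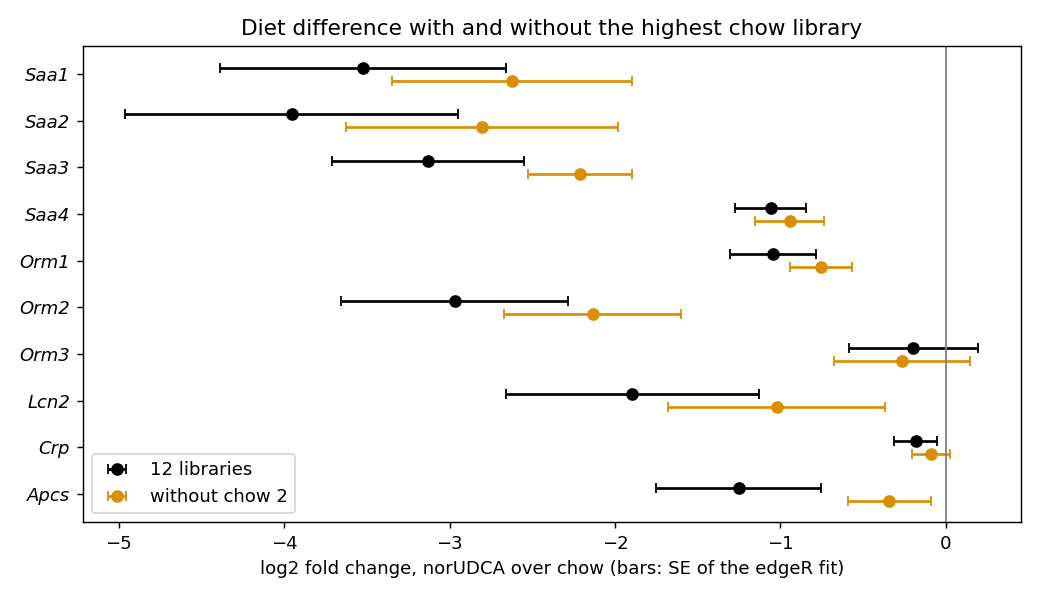
Log2 fold change of each gene, norUDCA over chow, from the edgeR fit of 12 libraries (black) and of the 11 libraries without chow 2 (orange), with bars of 1 standard error. Leaving out chow 2 brings Saa1 from -3.52 to -2.62 and Apcs from -1.25 to -0.34, and 6 genes are called lower in either fit.

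Levels of different genes were compared per kilobase of the gene length listed by the authors. By the chow median the order was Saa1 (2213 CPM per kb), Orm1 (1741), Saa2 (1710), Saa4 (288), Crp (276), Orm2 (112.0), Lcn2 (111.9), Apcs (98.7), Orm3 (69.1) and Saa3 (29.1). Of these neighbours, only Saa2 and Saa4 had ranges in chow that did not overlap. In norUDCA the order was Orm1 (957 CPM per kb), Saa1 (285), Crp (263), Saa2 (189), Saa4 (127), Apcs (73.3), Orm3 (70.9), Orm2 (42.5), Lcn2 (25.6) and Saa3 (5.37), and every pair of neighbours overlapped. Orm1 was thus above Saa1 in the median norUDCA level and below it in the median chow level. Per kilobase, Saa1 was above Orm1 in 4 of 6 chow libraries, and Orm1 was above Saa1 in 6 of 6 norUDCA libraries.

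The spread between chow libraries differed widely among the genes. The highest chow library was 30.6 times the lowest for Saa2, 26.3 times for Lcn2, 18.6 times for Saa1, 15.5 times for Orm2, 9.83 times for Saa3 and 8.82 times for Apcs. The same ratio was 3.94 for Orm3, 3.26 for Orm1, 2.23 for Saa4 and 1.84 for Crp. Without chow 2 the ratio was 9.79 for Saa2, 8.78 for Lcn2, 7.82 for Saa1, 7.75 for Orm2, 2.77 for Saa3 and 2.16 for Apcs. As the SD of log2 CPM between chow libraries, these values were 1.85 for Saa2, 1.66 for Lcn2, 1.65 for Saa1, 1.62 for Orm2, 1.25 for Saa3 and 1.16 for Apcs, each larger than in more than 99% of the tested genes. The median over all tested genes was 0.238. Crp, at 0.29, had a larger spread than 60.1% of tested genes, and Saa4, at 0.42, than 78.6%.

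The large spread did not rest on chow 2 for every gene. Without it the SD of log2 CPM among the remaining 5 chow libraries was 1.29 for Saa2, 1.27 for Lcn2, 1.21 for Saa1 and 1.19 for Orm2. For Apcs it was 0.414 in place of 1.16, for Saa3 0.602 in place of 1.25 and for Orm1 0.410 in place of 0.63, so in these 3 genes leaving out that library lowered the chow SD by more than 1.5 times. Orm3 had an SD of 0.738 without chow 2 and 0.68 with it.

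In norUDCA the SD of log2 CPM was 2.12 for Saa2, 1.70 for Saa1, 1.47 for Lcn2 and 1.09 for Orm3, each larger than in more than 99% of tested genes, whose median was 0.200. It was 0.93 for Orm2, 0.57 for Saa3, 0.52 for Apcs, 0.44 for Saa4, 0.32 for Orm1 and 0.21 for Crp. Whether the spread differed between diets was tested across all genes with limma on absolute deviations of log2 CPM from the mean of each diet. This called 0 of 12378 genes, with 1062 genes at an unadjusted p under 0.05 and 746 of these less spread under norUDCA. By this measure 6 members were less spread under norUDCA, beside a median SD over all tested genes of 0.200 in norUDCA and 0.238 in chow. Less spread was thus not particular to the members. Of the 10 members, 0 had an unadjusted p under 0.05. The smallest p among them was 0.0827 for Orm2 (difference in mean absolute deviation -0.65 ± 0.35 on the log2 scale, adjusted p = 0.624).

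**Figure D3:**
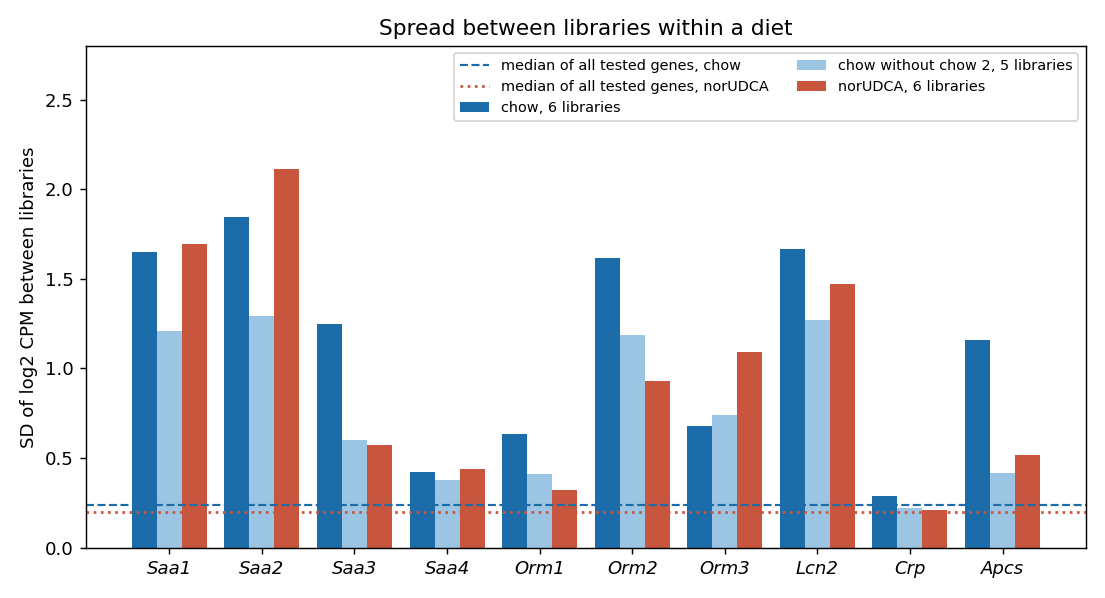
SD of log2 CPM between libraries for each gene in chow (dark blue bars), in chow without chow 2 (light blue bars) and in norUDCA (red bars), with the median over all 12378 tested genes as a dashed line (chow, 0.238) and a dotted line (norUDCA, 0.200). Saa1, Saa2, Orm2 and Lcn2 stay above 1.1 without chow 2, whereas Saa3 and Apcs drop to 0.602 and 0.414.

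The libraries that were high or low were largely shared between the genes. Chow 7 was the highest or the next highest chow library for all 10 genes, chow 16 was the lowest for 7 genes and chow 3 for the other 3. In norUDCA, library 13 was the highest for 5 genes and library 10 for 4, and library 12 was the lowest for 7. After the mean of each diet was subtracted, Pearson's r over the 12 libraries was 0.992 between Saa1 and Saa2, which share long runs of sequence, and 0.974 between Saa4 and Lcn2, which belong to different families. It was 0.928 between Orm1 and Orm2, 0.904 between Orm1 and Apcs, and 0.048 between Orm3 and Apcs. These are descriptions over 12 libraries that share scaling and depth with each other.

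**Figure D4:**
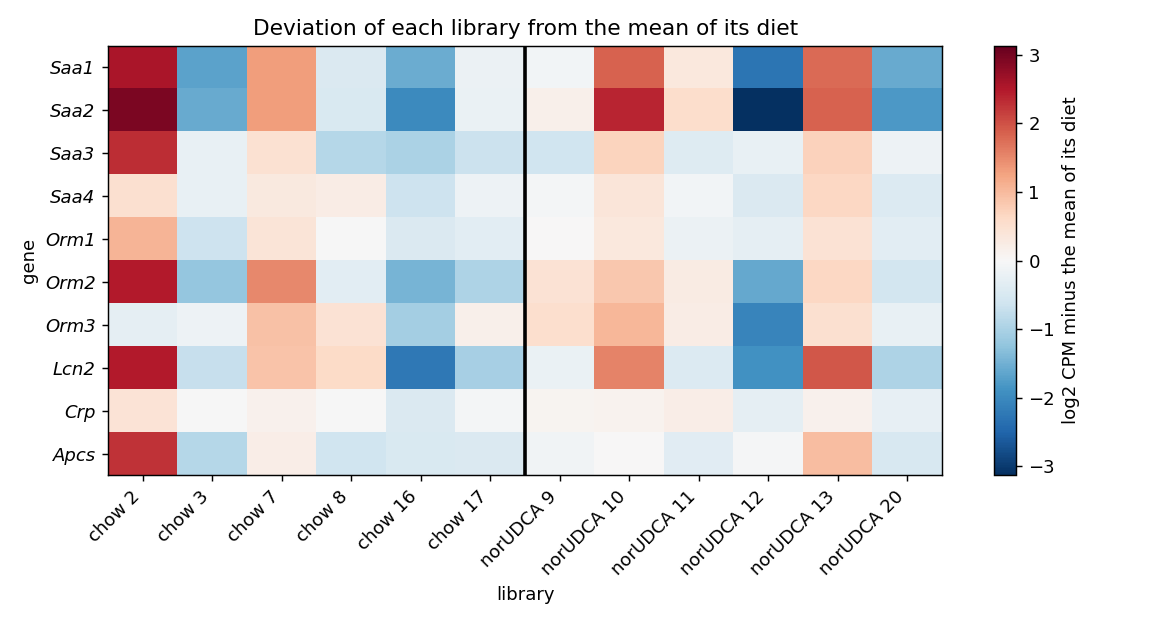
Log2 CPM of each gene minus the mean of its diet, with genes in rows and libraries in columns and the diets parted by a black line. Chow 2 and chow 7 are red for most genes and chow 16 is blue, norUDCA 10 and 13 are red and norUDCA 12 is blue, and the Crp row is pale throughout.

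Ratios between relatives were examined after the values had been seen and carry no test. Orm2 was 0.237 of Orm1 in chow 2, 0.187 in chow 7 and 0.0435 to 0.0707 in the other chow libraries, and 0.0129 to 0.0468 in norUDCA. The Saa2 to Saa1 ratio had a median of 0.785 in chow and 0.629 in norUDCA, with 1.04 in chow 2 at the top and 0.313 in norUDCA 12 at the bottom. Apcs reached 1.01 of Crp in chow 2 and lay between 0.155 and 0.299 of it in the other chow libraries. In norUDCA that ratio was between 0.122 and 0.323.

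The genes whose pattern was most like that of a member were taken as the 5 with the highest r after the diet mean was subtracted, among 11116 genes compared. For Saa1 they were Jak3 (r = 0.951), Stat3 (0.946), Pvr (0.935), Synj2 (0.924) and Fgg (0.918), the last of which encodes fibrinogen gamma. For Orm2 they were Synj2 (0.966), Kng2 (0.962), Serpina10 (0.955), Jak3 (0.945) and Il17ra (0.941), and for Lcn2 they were Slc39a14 (0.967), Gfra1 (0.966), Synj2 (0.959), Stat3 (0.949) and Jak3 (0.947). Without chow 2, r was between 0.901 and 0.977 for these 15 pairs. Crp was most like Rapgef2 (0.931), RP24-439I22.1 (0.925), Strn3 (0.917), Flcn (0.913) and Zfp36l1 (0.913). Apcs was most like Ddhd1 (0.959), Cp (0.953), Metap1d (0.942), Itih3 (0.931) and Ambp (0.930), with an r without chow 2 of 0.913, 0.842, 0.838, 0.914 and 0.838 in that order.

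Other genes of the acute-phase response were taken from lists. A gene could stand on more than 1 list or marker list, as Stat3, Tlr2, Apoa1, Hnf4a, S100a8 and S100a9 did, so the counts below share some calls. Of all tested genes 8.62% were called lower. Of 24 tested genes for other proteins that rise in inflammation, 15 were lower under norUDCA and 0 higher, with a median log2 fold change of -0.91. With 1 library left out the count lower ran from 10 (without chow 7) to 15. Among the 15 were S100a8 and S100a9, at most 6.14 CPM in any library, which are counted again below as the 2 called neutrophil markers. The 15 included Hp, which encodes haptoglobin (-1.56 ± 0.30, adjusted p = 0.00337), and Hpx, which encodes the haem carrier hemopexin (-1.77 ± 0.30, adjusted p = 0.00118). Itih3, of the inter-alpha-trypsin inhibitor family, had a log2 fold change of -1.26 ± 0.22 (adjusted p = 0.00188), and the serpin gene Serpina3k of -0.92 ± 0.10 (adjusted p = 5.44e-05). Among the chow libraries Hp, Hpx and Itih3 were highest in chow 2, whereas Serpina3k was highest in chow 8 (16232 CPM, against 13238 CPM in chow 2). The 9 not called included Serpina3n (-1.10, adjusted p = 0.0903) and Hamp (0.05, adjusted p = 0.930). Without chow 2 the log2 fold changes of Hp and Hpx were -1.21 and -1.45. Of 9 tested genes for proteins that decline in inflammation, 0 were called higher (1 with libraries scaled by total counts) and 4 lower, namely Apoa4 (-0.98), the transferrin gene Trf (-0.76), the fetuin A gene Ahsg (-0.58) and the apolipoprotein A-I gene Apoa1 (-0.55).

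Upstream in the pathway, 4 of 18 tested cytokine receptors and signal transducers were lower and 0 higher, beside 8.62% of all tested genes called lower. These were Lifr, the leukaemia inhibitory factor receptor (-1.09 ± 0.16, adjusted p = 0.000413), the toll-like receptor gene Tlr2 (-1.89 ± 0.41, adjusted p = 0.00646), the interleukin-1 receptor gene Il1r1 (-1.47 ± 0.32, adjusted p = 0.00692) and Stat3 (-0.65 ± 0.17, adjusted p = 0.0161). The interleukin-6 receptor gene Il6ra (0.21, adjusted p = 0.243) and the gp130 gene Il6st (-0.36, adjusted p = 0.0817) were not called. Stat3 was at 212 to 384 CPM in chow, with chow 2 the highest and chow 16 the lowest, and at 130 to 224 CPM in norUDCA. Tlr2 and Il1r1 were also highest in chow 2 among the chow libraries, whereas Lifr was highest in chow 16 (571 CPM, against 437 CPM in chow 2). Of 19 transcription factors of the response 7 were lower and 0 higher, among them Egr1 (-1.58 ± 0.34, adjusted p = 0.00593), Nfkbiz (-1.12 ± 0.27, adjusted p = 0.0125) and Hnf4a (-0.28 ± 0.07, adjusted p = 0.0140). Among the chow libraries Egr1 was lowest in chow 2 (41.1 CPM), and Nfkbiz and Hnf4a were highest in chow 3. Without chow 7, norUDCA 11, norUDCA 12 or norUDCA 13 the count of lower factors was 4. The Hnf4a call was lost with libraries scaled by total counts (-0.13, adjusted p = 0.204).

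The cytokines themselves were scarce in whole liver. Of 13 listed, 4 had enough counts to be tested, and 0 of these were called either way by edgeR's quasi-likelihood test, with Il1b alone at an unadjusted p under 0.05 (log2 fold change -1.01, unadjusted p = 0.0189, adjusted p = 0.0902). Without chow 2, Il1b was called lower (-1.19, adjusted p = 0.0317). Il6 had 0 to 1 counts per library. Among 22 tested receptors and partners of the member proteins 6 were lower and 3 higher. Of all tested genes 8.62% were called lower, and 833 of 12378 were called higher. Scarb1, the high-density lipoprotein receptor, was lower (-0.59 ± 0.09, adjusted p = 0.000839), and the scavenger receptor Cd36 was higher (1.55 ± 0.29, adjusted p = 0.00257). Without norUDCA 12 or norUDCA 20 the count lower was 3, and without norUDCA 13 it was 10. Of 7 tested other lipocalins only Obp2a was lower (-1.78 ± 0.52, adjusted p = 0.0312), a call lost with any of 8 libraries left out (adjusted p at most 0.0675). None of 5 other listed pentraxins could be tested.

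Marker lists of liver cell types gave the following sums beside these results. The counts of called markers stand beside 8.62% of all tested genes called lower and 833 of 12378 called higher. The 8 hepatocyte markers summed to 69037 to 88492 CPM in chow and 69627 to 84646 CPM in norUDCA, and 4 of them (Apoa1, Tat, Hnf4a and Apob) were called lower, the Apob call being lost with any of 9 libraries left out (adjusted p up to 0.107). Of 12 neutrophil markers 2 had enough counts, S100a8 and S100a9, and both were called lower, S100a8 at an adjusted p of 0.0399 and S100a9 at 0.0375. Their calls were lost with any of 9 and 8 libraries left out, with adjusted p up to 0.110 and 0.103. The neutrophil list summed to 1.5 to 10.3 CPM in chow and 0.767 to 3.12 CPM in norUDCA, and the defining genes Ly6g and Mpo had 0 to 1 counts per library and Elane 0 to 5. Of 9 tested Kupffer cell and macrophage markers 5 were lower, including Vsig4 (-0.97) and Clec4f (-0.83). With 1 library left out this count was 2 to 7, namely 2 without chow 7, norUDCA 9, norUDCA 12 or norUDCA 20, 3 without chow 8, chow 16, norUDCA 10 or norUDCA 11, and 7 without norUDCA 13. The call of Csf1r was lost with any of 8 libraries left out (adjusted p up to 0.0872) and that of Cd5l with any of 4 (up to 0.0607). This list had sums of 168 to 397 CPM in chow and 100.4 to 230 CPM in norUDCA. Chow 2, the highest library for 9 of the 10 genes, had the lowest chow sum of both the neutrophil and the macrophage markers (1.5 and 168 CPM), and chow 7 had the highest (10.3 and 397 CPM). The part of these cells in the diet differences was not tested. None of 6 endothelial markers was called, at 104 to 172 CPM in chow and 107 to 157 CPM in norUDCA, though Lyve1 was without norUDCA 12 (adjusted p = 0.0322), and none of 3 tested adipocyte markers was called.

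The other marker lists were short, and 8.62% of all tested genes were called lower. A single call in a list with few tested genes is not a result about that list. Of 9 lymphocyte markers 2 had enough counts. Of these Cd4 was lower (-2.86 ± 0.21, adjusted p = 9.12e-07) and Ptprc was not called (-0.51 ± 0.26, adjusted p = 0.212). Cela1, the 1 of 8 exocrine pancreas markers with enough counts, was lower (-1.24 ± 0.11, adjusted p = 6.2e-06). Of 5 tested cholangiocyte markers Sox9 (-1.11 ± 0.21, adjusted p = 0.00249) and Spp1 (-0.91 ± 0.24, adjusted p = 0.0198, 0.0505 with limma-voom) were lower. Krt19 (0.31 ± 0.42, adjusted p = 0.677) and Epcam (0.16 ± 0.29, adjusted p = 0.760) were not called, and the median log2 fold change of the 5 was -0.09. Of 5 erythroid markers Alas2 was lower (-0.63 ± 0.11, adjusted p = 0.00137). Of 7 stellate cell markers Col1a1 was higher (0.79 ± 0.25, adjusted p = 0.0439), a call lost with any of 8 libraries left out (adjusted p up to 0.0948), and 3 were higher without chow 17. The lymphocyte list summed to 6.26 to 12.4 CPM in chow and 3.46 to 7.29 CPM in norUDCA. The cholangiocyte list summed to 32.8 to 102 CPM and 32.7 to 41.0 CPM, with chow 2 the highest chow library at 102 CPM. Of these 102 CPM, Spp1 alone made up 90.9 CPM, and Krt19 and Epcam were at 0.92 and 0.84 CPM in chow 2.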

How the data were processed

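Total RNA was extracted with TRIzol from frozen liver and sequenced as NEBNext Illumina libraries (6 chow, 6 norUDCA). Per gene, the deposited values are raw read counts made by the authors. Of the tools, CASAVA, STAR and DESeq2 are named in the submitters' processing notes. Their versions, the counting settings and the build are not given in the sources used. Other deposited tables hold the authors' own fold changes and p-values and were not used. Gene symbols that had been turned into dates (27) were restored from their identifiers. Here, counts were scaled by TMM and tested with edgeR 4.0.16 (filterByExpr, quasi-likelihood F test, R 4.3.3), norUDCA against chow, with no covariate, and p-values were adjusted by Benjamini-Hochberg over 12378 genes, with calls made under 0.05. Log2 CPM used a prior count of 2, and limma 3.58.1 tested the spread. Scripts were tested on simulated data. Alternatives were DESeq2 1.42.0 (test and size factors), total counts, no filter, limma-voom, thinning, deviations from the median, summed near copies and each library left out. Chow means and ratios without chow 2, and marker counts with each library left out, were added after seeing the data. The named genes are all members, up to 4 tested genes with the smallest p from each list or described marker list, and 5 genes per selected member for likeness. Il6ra, Il6st, Serpina3n and Hamp are named besides, as listed genes that were not called. Positions are those of the deposited table, and stretches are on GRCm38.p6 from RefSeq. Members and lists were chosen with earlier results of these data known, and the ratios after seeing their values.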

Additional observations from a re-analysis of the deposited data

Results flagged for a closer look

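In 5 of the 20 sets of 6 libraries formed by the 10 genes and the 2 diets, the highest library lay apart from the rest. Its gap over the range of CPM exceeded Dixon's critical value for 6 samples. Chance marks about 5% of separate sets of normally distributed values. These CPM were not put on a log scale, and the sets share libraries and correlated genes. The 5 of 20 can therefore not be weighed against that 5%. In 4 of the 5 marked sets the highest library was chow 2. Saa2 was at 10153 CPM in chow 2 and at 331 to 3243 CPM in the other chow libraries. Saa3 was at 103.9 CPM there against 10.6 to 29.2 CPM. Lcn2 was at 807 CPM against 30.7 to 269.7 CPM, and Apcs at 639 CPM against 72.4 to 156 CPM. In the norUDCA diet, Apcs was at 148.7 CPM in library 13 and at 53.5 to 75.9 CPM in the other 5 libraries.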

How the results depend on the processing

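Across the alternatives, 6 members were called lower and 0 higher each time. The 10 log2 fold changes kept their direction and their side of the threshold in 182 of 185 combinations of gene and setting. The exceptions were all for Orm3, which gained the call as part of the orosomucoid sum (-1.14) and ran from -0.41 to 0.031 with single libraries left out. Scaling by total counts moved the median log2 fold change of all tested genes by 0.15 and called 2434 genes higher and 565 lower, with 1 negative acute-phase gene and 2 receptors or transducers higher and 4 transcription factors lower. The other lipocalins called lower numbered 2 with DESeq2 and 0 with limma-voom. With no filter the spread test called 828 of 22530 genes and with thinned counts it called 1. The direction of the difference in spread changed for Crp with total counts (0.00129) and for Saa4 with deviations from the median (-0.0193). Leaving out each library in turn gave 0 to 1 transcription factors higher and 4 to 9 lower, 0 to 1 cytokines lower, 3 to 10 receptors and partners lower (3 without norUDCA 12 or 20, 10 without norUDCA 13) and 0 to 2 other lipocalins lower. The difference in spread ranged from -0.25 to 0.46 for Saa1, -0.22 to 0.73 for Saa2, -0.091 to 0.099 for Saa4, -0.19 to 0.43 for Orm3, -0.50 to 0.17 for Lcn2, -0.064 to 0.023 for Crp and -0.70 to 0.060 for Apcs. The SD of log2 CPM in chow ranged from 0.602 to 1.39 for Saa3, 0.410 to 0.706 for Orm1 and 0.414 to 1.29 for Apcs. Among named genes of the lists 62 of 701 combinations of gene and setting lost their call, 9 gained one and 0 changed direction. No paired analysis was possible because the diets share no replicate number. The causes of these changes were not tested. Saa3 had low counts in norUDCA, 30 to 86 per library. The SE of its log2 fold change was 0.58 with all libraries and 0.31 without chow 2.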
